A study of Homo sapiens with 14 samples.

Results

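Circular RNAs (circRNAs) from genes of molecular motors and of the centrosome were followed through 6 fractions of HepG2 cells, an established human hepatocellular carcinoma line. A circRNA was counted here when both of its ends lay inside the RefSeq span of a protein-coding gene named CORO1C, PCM1 or PCNT, or whose symbol starts with DYNC, DNAH or TUBGCP, or with KIF, MYO or CEP and a digit. By this rule 178 of 11227 circRNAs were kept, from 64 of the 133 such genes in RefSeq. The choice used gene names and positions and no read count.

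Total RNA came from whole cells, nucleus, cytoplasm, ribosome, cytosol and exosomes of HepG2 cells, for which the labels name no treatment, with 2 libraries each, and the 2 mitochondrial samples were not analysed here. Ribosomal RNA was depleted from all of these except the exosomal RNA, which therefore differs from whole-cell RNA in its preparation as well as its source. The labels neither give a purity check of the fractions nor say if a fraction's 2 samples are separate cultures, so p-values measure only the spread between these samples, which may be technical. The tables list circRNAs by their back-splice reads, and hold no linear transcripts by which the fractions could be checked. In such bulk RNA, more cells holding a circRNA and more copies per cell cannot be told apart.

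A circRNA forms when a splice donor joins an acceptor upstream of it in the same transcript, which closes the stretch in between into a ring without free ends. Kinesins are motors that walk along microtubules, most of them toward the growing end, and several act on the mitotic spindle. Cytoplasmic dynein walks the other way, axonemal dyneins beat cilia and flagella, and myosins move along actin filaments. The centrosome is the main site from which animal cells grow microtubules: a pair of centrioles sits in a protein matrix that holds ring complexes of gamma-tubulin, with satellites of PCM1 around it. Hepatocytes use these tracks to move vesicles between their blood-facing and bile-facing surfaces.

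The libraries held between 2301 circRNA reads, in exosomes, and 72415, in cytoplasm. The nuclear libraries held 7727 and 7235. Nuclear and exosomal values thus rest on far fewer reads than the others. Levels are given as RPTM, reads per 10000000 library reads, as mean ± SD of 2 libraries (n = 2). A table listed a circRNA only where both libraries of the fraction had a read from the same caller, so "unlisted" is not a measured 0. Reads of a library are the mean over the callers that list the circRNA, and can end in 0.5.

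The 178 circRNAs were spread unevenly over the roles of their hosts. Centrosome proteins gave 80 circRNAs from 27 of 41 genes and kinesins 44 from 17 of 39. Myosins gave 20 from 9 of 25 genes and cytoplasmic dynein subunits 12 from 6 of 9. Of the 13 axonemal dynein genes only DNAH14 and DNAH17 had any, 11 in all. TUBGCP3 and TUBGCP4, of 5 gamma-tubulin complex genes, gave 7, and CORO1C, which encodes a coronin that binds actin filaments and is no motor, gave 4. A circRNA was listed for 48.1% of these genes against 19.8% of the 20056 protein-coding genes. Long genes were hosts more often: above 50000 bases the shares were 48.9% and 39.1%, and up to 50000 bases they were 46.5%, 20 of 43 genes, and 11%. Expression of the linear mRNAs, which the tables do not give, was not tested.

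Most of these circRNAs were rare. Of the 178, 101 were in only 1 table, 56.7% against 52.6% of all circRNAs, and none of these 101 exceeded 13 reads in a library. Cytoplasm alone listed 46, cytosol alone 29, whole cells alone 18, ribosome alone 7 and nucleus alone 1. Both callers listed 69 together in at least 1 table, 38.8% against 41.7% of all. The cytoplasm table held 111 of the 178, which was 1.59% of its entries, followed by cytosol with 79 at 1.55% and whole cells with 78 at 1.46%. The ribosome table held 36 at 1.24%, that of the nucleus 16 at 1.23%, and that of exosomes 2 at 0.452%.

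By reads rather than entries, these hosts supplied a small part of the circRNA reads of every fraction. Their share was 1.04% ± 0.0738 in whole cells, 1.14% ± 0.0279 in the nucleus and 1.08% ± 0.0153 in cytoplasm. It was lower in the ribosome fraction, at 0.827% ± 0.0168, and in cytosol, at 0.810% ± 0.00589, and lowest in exosomes, at 0.428% ± 0.0164. In each of the 3 comparisons of the design (nucleus against cytoplasm, ribosome against cytosol, exosome against cell) the libraries of the 2 fractions did not overlap in this share. An exact two-sided permutation test of 2 against 2 libraries cannot go below p = 0.33, which is what each gave. As levels, the hosts together held 77.9 RPTM in cytoplasm, 56.8 in cells, 48.9 in cytosol, 23.0 in the ribosome fraction, 10.2 in the nucleus and 1.24 in exosomes.

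**Figure D1:**
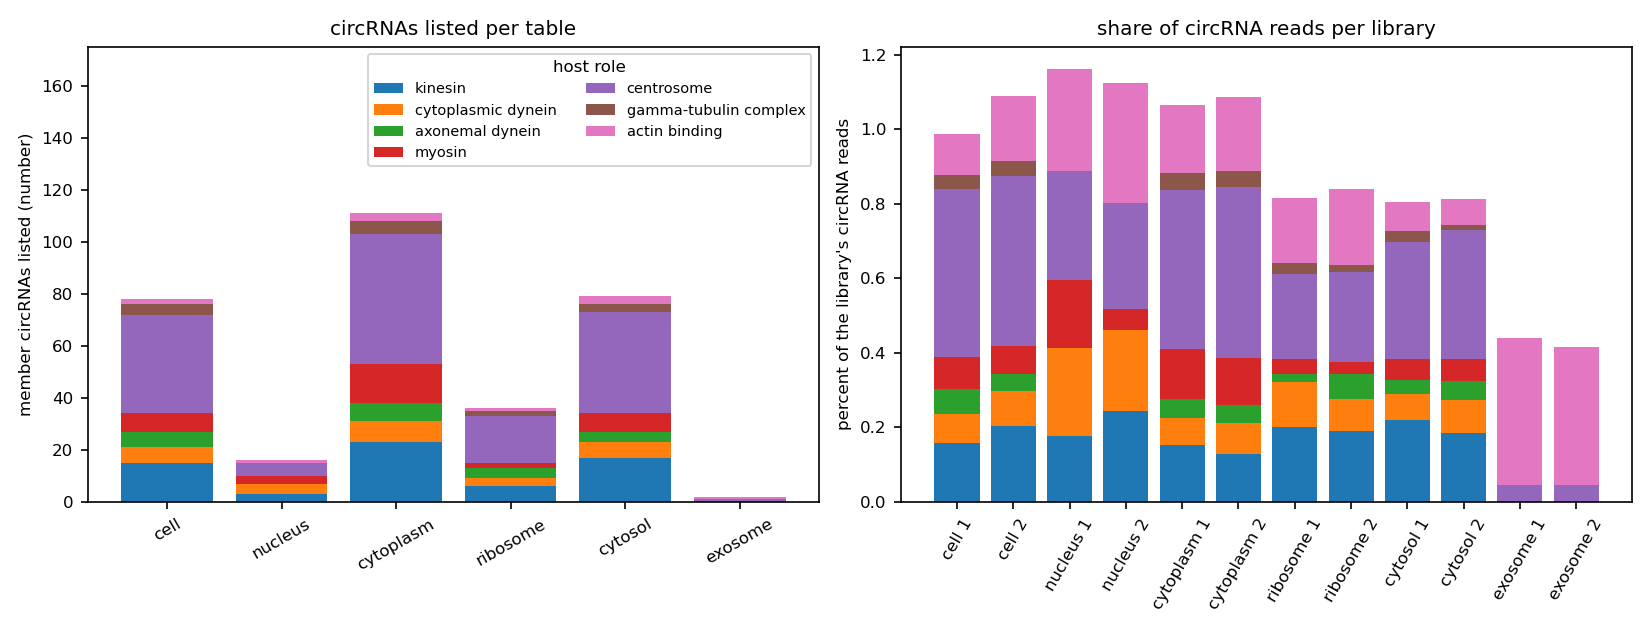
Number of listed circRNAs per fraction (left) and their percentage of each library's circRNA reads (right), stacked by the role of the host protein. Centrosome hosts form the largest block of entries in every fraction except exosomes, where CORO1C and CEP72 are the 2 entries.

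The roles took different shares in different fractions. Cytoplasmic dynein hosts held 0.226% ± 0.0134 of nuclear circRNA reads and 0.0777% ± 0.00667 of cytoplasmic ones, a ratio of 2.90. The nuclear share was 18 and 15.5 reads, from 4 circRNAs of 2 genes. Kinesin hosts were also higher in the nucleus, at 0.210% ± 0.0479 against 0.141% ± 0.0163. So was CORO1C, at 0.298% ± 0.0329 against 0.191% ± 0.0129. Centrosome hosts went the other way, with 0.290% ± 0.00560 in the nucleus and 0.443% ± 0.0232 in cytoplasm. Axonemal dynein and gamma-tubulin complex hosts were unlisted in the nucleus. Between ribosome and cytosol, CORO1C had 0.189% ± 0.0200 against 0.0740% ± 0.00548, and centrosome hosts 0.235% ± 0.00824 against 0.329% ± 0.0229. In each of these comparisons the libraries of the fractions did not overlap (exact permutation p = 0.33, the smallest possible). Kinesin shares were 0.196% ± 0.00856 in the ribosome fraction and 0.202% ± 0.0256 in cytosol, with overlapping libraries (exact permutation p = 1).

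Among kinesins, KIF5B and KIF20B led. KIF5B, the heavy chain of the kinesin that carries organelles outward along microtubules, had 6 circRNAs. The longest, of 9180 bases at chr10:32028428-32037607, had 36 and 26 reads in the ribosome fraction and 17.5 and 14.5 in whole cells. No other table listed it, cytoplasm and cytosol included. Its level was 3.70 ± 0.0329 RPTM in the ribosome fraction and 1.87 ± 0.00990 in cells, and the libraries did not overlap. A second KIF5B circRNA, of 1430 bases at chr10:32019858-32021287, had 16 and 23 reads in cytosol, 4 and 3 in cytoplasm and 3 and 3 in the ribosome fraction. The 2 circRNAs share no end. Summed over the gene the ribosome and cytosol levels were close, 4.06 ± 0.0476 and 3.30 ± 0.0920 RPTM, but the 9180-base circRNA made up 91.0% ± 1.88 of the ribosomal KIF5B reads while the 1430-base one made up 59.1% ± 9.37 of the cytosolic ones.

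KIF20B, a kinesin of late cell division, had 6 circRNAs too, but nearly all of its reads came from 1 of them. This circRNA, of 11490 bases at chr10:89751346-89762835, had 71.5 and 35 reads in cytosol, 40.5 and 22.5 in cytoplasm, 22.5 and 18 in cells and 6 and 3 in the ribosome fraction. It held 91.1% ± 5.09 of the gene's circRNA reads in cytosol and all of them in cells. Cytosol, at 5.47 ± 2.98 RPTM, and cytoplasm, at 3.40 ± 0.737, overlapped, and the ribosome fraction lay below every other fraction that listed it, at 0.522 ± 0.139. Neither nucleus nor exosomes listed it.

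KIF2C, which strips tubulin from microtubule ends at centromeres, had a circRNA of 585 bases at chr1:44757556-44758140. It had 8 and 16 reads in cells, 8.5 and 11.5 in the nucleus and 16 and 8 in cytoplasm, with no entry in the other 3 tables. Its levels in these 3 fractions, 1.47 ± 0.865, 1.22 ± 0.341 and 1.29 ± 0.372 RPTM, overlapped. KIF3B, a subunit of a kinesin that serves cilia, had a circRNA of 657 bases that only the caller headed CIRC listed, with 6 and 8 reads in cells, 1 and 4 in the nucleus, 7 and 2 in the ribosome fraction and 11 and 4 in cytosol. KIF16B, which moves early endosomes, had 5 circRNAs, 4 of them in 1 table only.

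Cytoplasmic dynein was carried by DYNC1H1, its heavy chain, with a circRNA of 438 bases at chr14:102040236-102040673. It had 20.5 and 27 reads in cytoplasm, 12 and 21 in cells, 6.5 and 8.5 in the nucleus and 13.5 and 4 in the ribosome fraction. It was unlisted in cytosol and exosomes. The cytoplasmic level of 2.72 ± 1.04 RPTM overlapped that of cells, 2.0 ± 1.02, and the nuclear and ribosomal levels, 0.913 ± 0.234 and 0.980 ± 0.587, overlapped each other. DYNC1LI2, a light intermediate chain that binds cargo adaptors, had a circRNA of 2394 bases in all tables but the exosomal one, from the caller headed Ciri alone, at 1.06 ± 0.416 RPTM in cytoplasm and 0.657 ± 0.210 in the nucleus. The related DYNC1LI1 gave 4 circRNAs, none of them in nucleus, ribosome fraction or exosomes. DYNC2I1, of the dynein that returns cargo from ciliary tips, was listed by Ciri alone, with 11 and 34 reads in cytosol and 11 and 10 in the ribosome fraction.

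DNAH14, an axonemal dynein heavy chain, was the host of 10 of the 11 axonemal circRNAs. Its most abundant one, of 21484 bases at chr1:224952670-224974153, had 15 and 15.5 reads in cytosol, 14 and 13 in cytoplasm, 16.5 and 8 in cells and 2 and 5 in the ribosome fraction. The first 3 fractions lay between 1.40 and 1.54 RPTM on average, and the ribosome fraction lay at 0.456 ± 0.353.

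Among myosins, MYO9B, an unconventional myosin, had a circRNA of 898 bases at chr19:17101660-17102557 in 5 tables. It had 18 and 10 reads in cells, 16.5 and 18 in cytoplasm, 10.5 and 11.5 in cytosol, 7.5 and 4.5 in the ribosome fraction and 7 and 2 in the nucleus. In cytoplasm the MYO15B circRNA of 207 bases led the group, with 39 and 23 reads. It had 17 and 9 in cells and 5 and 1 in the nucleus, all from the caller headed CIRC. MYO9A, close to MYO9B in structure, had 5 circRNAs with at most 11.5 reads in any library when summed.

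CEP192, which brings the kinases of centrosome maturation to the centriole, was the richest host, with 11 circRNAs. The most abundant, of 19786 bases at chr18:12999421-13019206, had 63 and 31 reads in cytoplasm, 45 and 24.5 in cells, 11.5 and 2 in the ribosome fraction, 3 and 3.5 in the nucleus and 1 and 3 in cytosol. All 11 together had 120 and 87.5 reads in cytoplasm but 2 and 5 in cytosol, a level of 11.4 ± 0.301 against 0.346 ± 0.190 RPTM. The ribosome fraction held 1.69 ± 0.599 and the nucleus 0.758 ± 0.0954. Cytosol was thus the lowest of the 5 fractions that listed the gene.

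CEP43, a centriole protein that anchors microtubules, showed another order. Its circRNA of 11563 bases at chr6:167022409-167033971 had 29.5 and 15.5 reads in cytoplasm, 25 and 17.5 in cytosol, 14 and 11 in cells and 2 and 2 in the ribosome fraction. The cytoplasmic and cytosolic levels, 2.42 ± 0.617 and 2.16 ± 0.684 RPTM, overlapped, and both lay above the ribosomal level of 0.245 ± 0.0537. CEP350, its partner at the centriole, had 10 circRNAs, 7 of them listed in cytosol with 31.5 and 32.5 reads in sum and none in the nucleus. The CEP72 circRNA of 1272 bases, from a partner of PCM1, had 11.5 and 17 reads in cytoplasm, 15 and 13.5 in cells, 8.5 and 6 in the nucleus and 1 and 1 in exosomes.

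PCM1, the scaffold of the centriolar satellites, had 10 circRNAs, and like KIF5B it changed its leading one between fractions. The circRNA of 591 bases at chr8:18011237-18011827 had 13.5 and 11 reads in the ribosome fraction, 9.5 and 8 in cytosol, 6 and 6 in the nucleus, 5 and 13 in cytoplasm and 7.5 and 4 in cells. A circRNA of 359 bases at chr8:17972329-17972687 had 14 and 22 reads in cytosol, 3 and 1 in cells and 3 and 2 in cytoplasm, and was unlisted in the ribosome fraction. The first held 69.0% ± 0.340 of the ribosomal PCM1 reads and the second 41.9% ± 4.95 of the cytosolic ones, where the first held 21.3% ± 6.74. In the nucleus the 591-base circRNA was the only PCM1 entry. PCNT, pericentrin of the centrosome matrix, had 8 and 7 reads in cytosol for its circRNA of 809 bases at chr21:46349012-46349820, 10 and 12 in cytoplasm, 15.5 and 9 in cells and 2 and 6 in the ribosome fraction. CEP290, a gatekeeper at the base of cilia, had 5 circRNAs, 4 of them listed in cytosol.

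Of the gamma-tubulin complex, the TUBGCP3 circRNA of 11045 bases led with 19.5 and 14 reads in cytoplasm, 15.5 and 7 in cells, 8 and 3 in cytosol and 6 and 1 in the ribosome fraction. CORO1C gave the most abundant circRNA of the whole set and the only one in all 6 tables, 2139 bases at chr12:108652272-108654410. It had 127 and 112.5 reads in cytoplasm, 55.5 and 72 in cells, 47.5 and 39.5 in the ribosome fraction, 44 and 38.5 in cytosol, 21 and 23 in the nucleus and 9 and 8.5 in exosomes. In level it ran from 13.3 ± 1.48 RPTM in cytoplasm through 7.63 ± 2.42 in cells, 5.24 ± 0.475 in the ribosome fraction and 4.18 ± 0.682 in cytosol to 2.67 ± 0.356 in the nucleus and 1.11 ± 0.371 in exosomes. Cells and ribosome fraction differed by less than the spread between the cell libraries. It ranked between 30 of 6968 entries in cytoplasm and 187 of 5105 in cytosol.

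**Figure D2:**
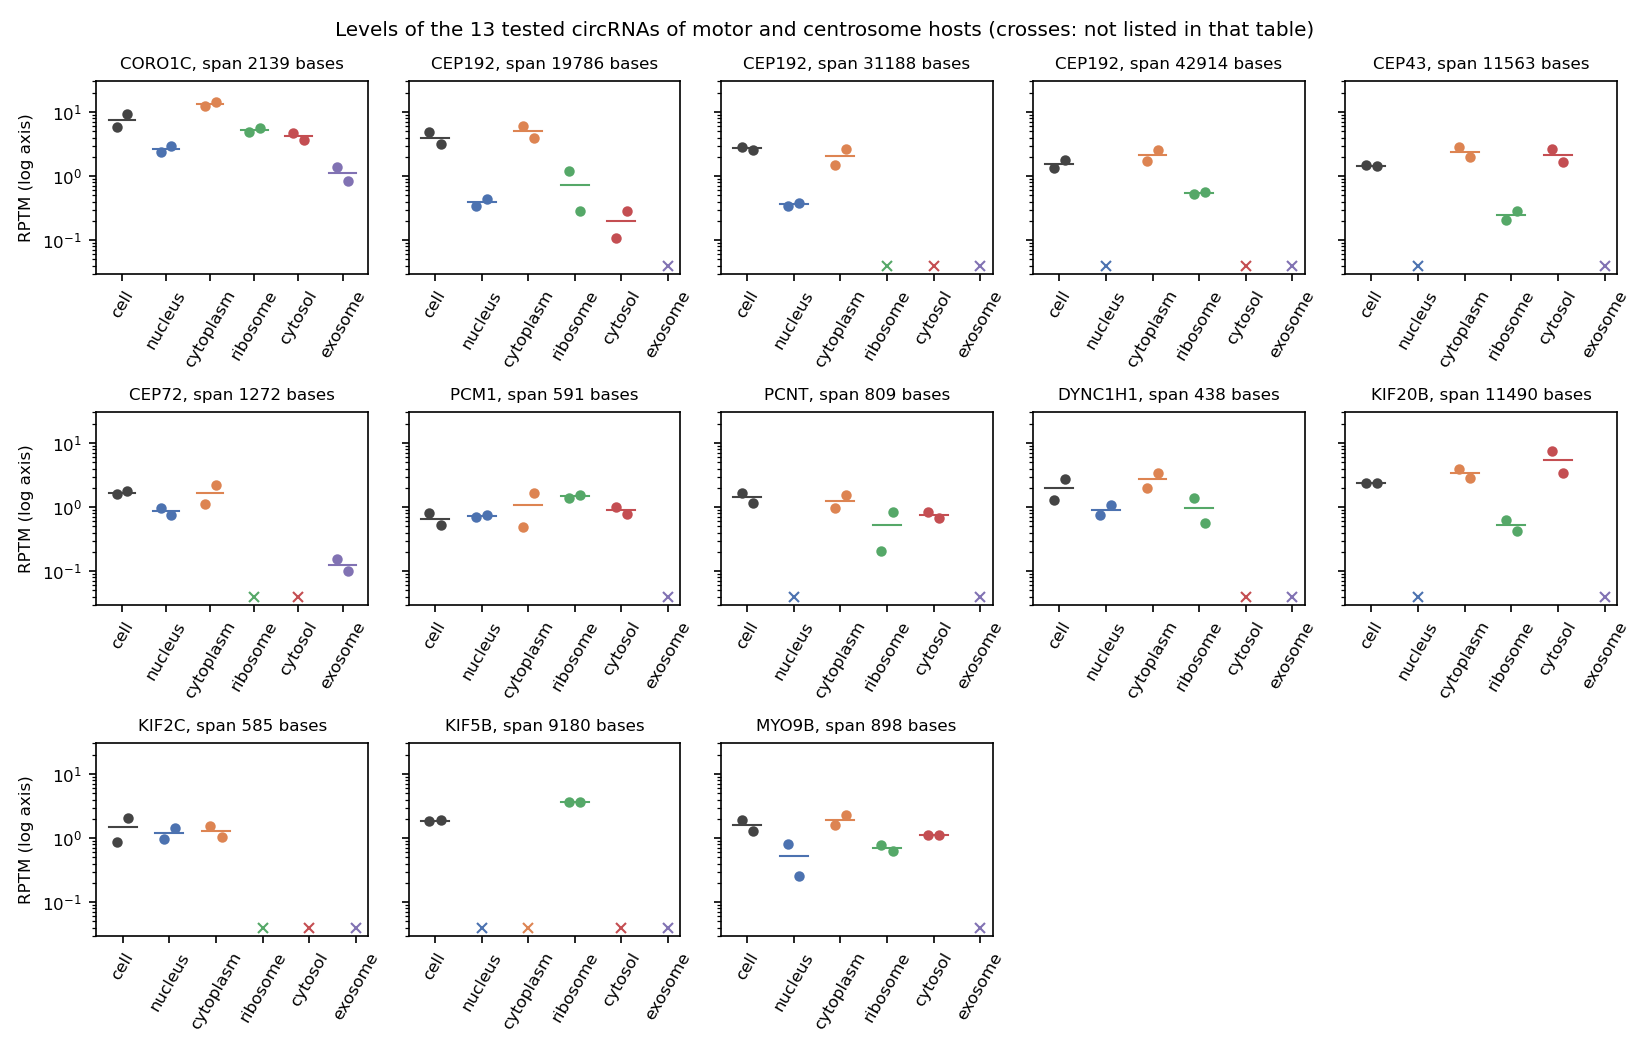
RPTM (reads per 10000000 library reads, log axis) of the 13 circRNAs that passed the count filter, 1 point per library and a line at the mean of 2. Crosses mark tables that do not list the circRNA: the KIF5B circRNA appears only in cells and the ribosome fraction, and the CORO1C one in every fraction.

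Fractions were compared with edgeR's quasi-likelihood test, fitted over 950 circRNAs with enough reads. The read filter was scaled to library depth, so fewer reads met it in nuclear and exosomal libraries than in cytoplasmic ones. Of the 178 circRNAs, 13 were among these 950, from 11 hosts. The CEP85 circRNA of 2206 bases, with 17 and 15.5 reads in cytoplasm, was not. A fold change is relative to the rest of a library's circRNAs rather than to its whole RNA, and no fold is given against a table that does not list the circRNA. A call is an adjusted p (Benjamini-Hochberg over the 950) under 0.05. Because unlisted circRNAs enter at 0, a stricter rule is given beside it: the same call in 4 fits, with TMM factors or total circRNA reads as the scale and unlisted circRNAs at 0 or at 1 read.

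In the nucleus, 3 short circRNAs were higher than in cytoplasm relative to other circRNAs: KIF2C, PCM1 and CEP72. The KIF2C circRNA met the depth-scaled filter only with its nuclear reads, so its selection and its call are not independent. With a filter of 5 reads in 2 libraries, not scaled to depth, KIF2C (1.99, edgeR adjusted p = 0.00754) and PCM1 (1.565, 0.0483) were called. CEP72 (1.21, 0.0607) was not. KIF2C, of 585 bases, rose by a log2 value of 2.42 ± 0.52 (SE; adjusted p = 0.000863), PCM1, of 591 bases, 2.0 ± 0.60 (adjusted p = 0.00868) and CEP72, of 1272 bases, 1.65 ± 0.51 (adjusted p = 0.0106). The circRNAs of KIF20B, CEP43, PCNT and the 42914-base one of CEP192 were called lower, each of them unlisted in the nucleus. In all 7 of 13 were called, 53.8% against a background of 48.2% of the 950. The 3 higher calls compare with a background of 14.9% and the 4 lower calls with 33.3%. Under the stricter rule the 3 higher calls held and no lower one did, with backgrounds of 11.2% and 0.842%.

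These calls are about composition. The nuclear level of circRNAs was low as a whole, and KIF2C and PCM1 overlapped between nucleus and cytoplasm in RPTM. CEP72 did not overlap and was lower in the nucleus, at 0.870 ± 0.153 RPTM against 1.64 ± 0.750 in cytoplasm. On the implied library totals the log2 differences of KIF2C, PCM1 and CEP72 were -0.044, -0.47 and -0.83. DYNC1H1 had 1.02 ± 0.52 (edgeR adjusted p = 0.0980), MYO9B 0.65 ± 0.58, CORO1C 0.18 ± 0.32, the 31188-base CEP192 circRNA -0.01 ± 0.64 and the 19786-base one -1.09 ± 0.60, and none was called. DYNC1H1 was called higher with total circRNA reads as the scale (1.53, edgeR adjusted p = 0.0184) and with RLE factors (1.42, adjusted p = 0.0289). The 19786-base CEP192 circRNA was called lower with either caller alone (-1.60 and -1.66), with all entries (-2.05), with no filter (-1.65), with a filter of 5 reads in 2 libraries (-1.51) and on implied totals (-3.54). The 31188-base one was called lower on implied totals (-2.47). The PCM1 call was lost with all entries (1.03, adjusted p = 0.138), no filter (1.44, 0.0660) and its 4 libraries alone (1.64, 0.0756). The CEP72 call was lost in those 3 settings (0.67 to 1.28), with Ciri alone (1.08), with DESeq2 (2.04, adjusted p = 0.0667) and with the filter of 5 reads (1.21). Single libraries mattered: the KIF2C call was lost without the second nuclear library (1.69, adjusted p = 0.0731), and PCM1 and CEP72 were lost without either nuclear library or the first cytoplasmic one (0.85 to 1.54 and 0.79 to 1.39). The PCNT call was lost without either nuclear library (adjusted p = 0.128 and 0.101) and that of the 42914-base CEP192 circRNA without the first (adjusted p = 0.0586), while the 19786-base one was called lower without the second cytoplasmic library (-1.86, adjusted p = 0.0116).

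Listed spans were shorter in the nucleus. The 16 nuclear entries had a median span of 1705 bases, against 3867 for the 111 cytoplasmic ones, and the same order held over all circRNAs, with 3386 and 6240. Of the 16, 14 were also in the cytoplasm table, 87.5% against 75.1% of all nuclear entries.

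Between ribosome fraction and cytosol, circRNAs from hosts of the same role went different ways. KIF5B, DYNC1H1, both tested CEP192 circRNAs listed there, PCM1 and CORO1C were higher in the ribosome fraction, and KIF20B and CEP43 were lower. These were 8 of 13, or 61.5% against a background of 52.7%, with 6 higher (background 26.6%) and 2 lower (background 26.1%). All 8 passed the stricter rule, which 37.4% of the 950 did, 21.4% higher and 16% lower. Of the 13, 46.2% were higher and 15.4% lower by that rule, and the difference from the background was not tested. Among kinesins the tested circRNAs of KIF5B and KIF20B moved in opposite directions, and among centrosome proteins those of CEP192 and CEP43 did.

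The KIF5B circRNA of 9180 bases, unlisted in cytosol against 36 and 26 ribosomal reads, had an adjusted p of 1.67e-09 in edgeR. DYNC1H1 (1.46e-05) and the 42914-base CEP192 circRNA (0.000245), with 5 and 4 ribosomal reads, were likewise unlisted in cytosol. On the log2 scale the 19786-base CEP192 circRNA changed by 2.79 ± 0.77 (edgeR adjusted p = 0.00306), PCM1 1.59 ± 0.48 (0.00655) and CORO1C 1.23 ± 0.31 (0.00124). KIF20B had -2.39 ± 0.48 (edgeR adjusted p = 0.000134) and CEP43 -2.23 ± 0.62 (0.00352). MYO9B, at 0.30 ± 0.53, and PCNT, at 0.24 ± 0.66, were not called.

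The 19786-base CEP192 call rested on the first ribosomal library, which held 11.5 of its 13.5 reads there, and without it the log2 fold change was 0.89 (edgeR adjusted p = 0.620). CORO1C lost its call without the first (0.89, adjusted p = 0.0546) or the second ribosomal library (0.44, adjusted p = 0.326). PCM1 lost its call without either ribosomal library (1.22 and 0.85) or the second cytosolic one (1.23). On the implied library totals CORO1C and PCM1 had 0.33 and 0.71, neither called. CORO1C also missed the threshold among circRNAs listed in both tables (0.68, edgeR adjusted p = 0.0732), as did PCM1 (1.04, adjusted p = 0.0793). DESeq2 did not call CEP43 (adjusted p = 0.0724), PCM1 (0.204) or the 19786-base CEP192 circRNA (0.0568).

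**Figure D3:**
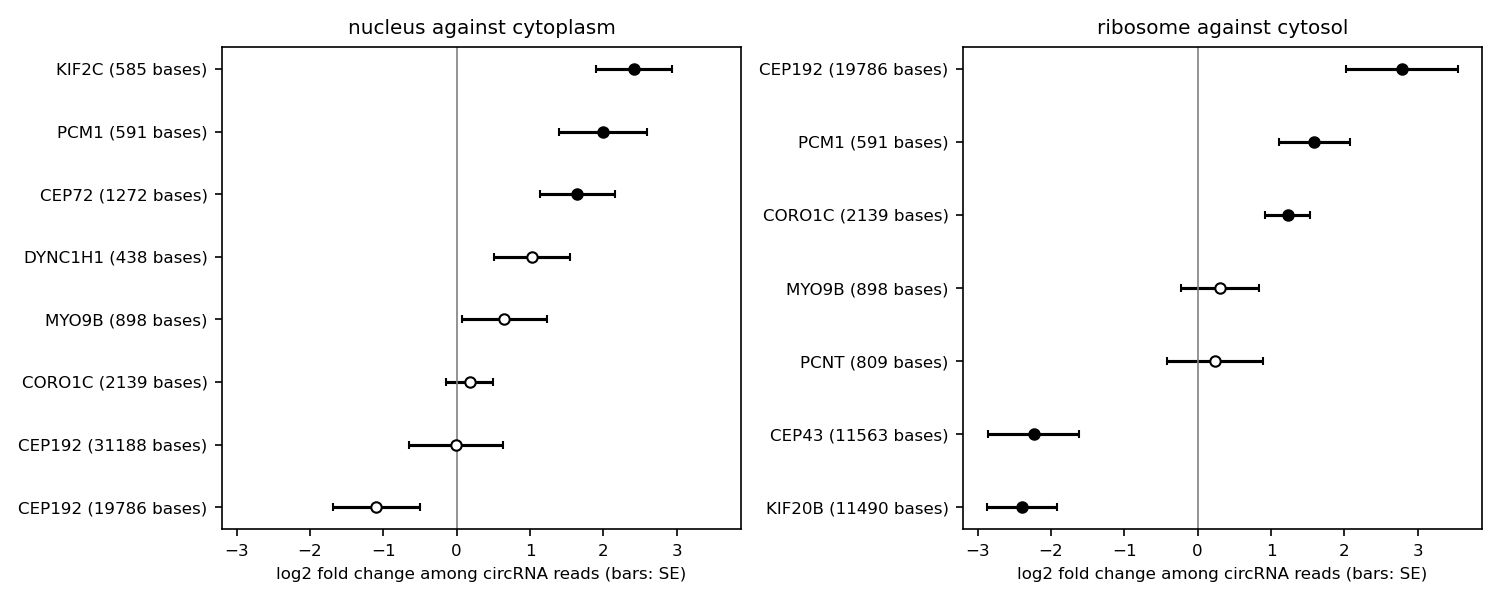
Log2 fold changes with SE from edgeR for the tested circRNAs that both tables of a comparison list, with filled points for adjusted p under 0.05. KIF2C, PCM1 and CEP72 lie to the right in nucleus against cytoplasm, and KIF20B and CEP43 lie to the left in ribosome against cytosol.

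A looser filter, of 5 reads in 2 libraries, let 37 of the 178 be tested and reached the second circRNAs of several hosts. In ribosome against cytosol 5 were then higher and 16 lower, 56.8% against a background of 51.9%, or 12.2% higher and 39.7% lower. With that filter and unlisted circRNAs at 1 read, a setting chosen after the data were seen, 7 were higher and 6 lower, 35.1% against 23.1%, or 11.6% higher and 11.4% lower. The KIF5B circRNA of 1430 bases was lower in the ribosome fraction by both settings, at -2.10 ± 0.58 on the log2 scale (edgeR adjusted p = 0.00369) and -1.53 ± 0.32 (adjusted p = 0.0293). So the 2 KIF5B circRNAs were called in opposite directions. The same held for PCM1 with unlisted circRNAs at 1 read: the 591-base circRNA was higher, at 1.60 ± 0.43 (edgeR adjusted p = 0.0243), and the 359-base one lower, with no ribosomal entry (adjusted p = 0.00318). The 1430-base and 359-base circRNAs met the filter only with their cytosolic reads, so their selection and their lower calls are not independent. With unlisted circRNAs at 0 the 591-base circRNA missed the threshold (1.02, adjusted p = 0.0846), and so did CORO1C (0.66, adjusted p = 0.0728). Another CEP192 circRNA, of 118223 bases and unlisted in cytosol, was higher by both settings (adjusted p = 0.00167 and 0.0242). A DYNC1H1 circRNA of 2988 bases, unlisted in the ribosome fraction, was lower with unlisted circRNAs at 0 (edgeR adjusted p = 0.0441). It was not called with them at 1 read.

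Exosomes listed 2 of the 178, the CORO1C circRNA and the CEP72 one, and cells listed both. This was 2.56% of the 78 circRNAs listed in cells, against 6.92% of all cell entries. The deposited average RPTM values carry up to 15 decimals in the exosome, ribosome and cytosol tables and up to 10 in the others. Of the 3 comparisons only exosome against cell spans both kinds of table, and the part this has in its values was not tested. In exosome against cell 10 of 13 were called lower and none higher, 76.9% against a background of 46% in either direction, 42% lower and 4% higher. All 10 were unlisted in exosomes. In edgeR with unlisted circRNAs at 1 read none of the 13 was called, and 1 had an unadjusted p under 0.05. DESeq2, with unlisted circRNAs at 0, called 1 lower. None of the 13 passed the stricter rule in edgeR. Of the 950, 1.58% did so, all of them higher and 0% lower. At this depth the lower calls therefore depend on how an unlisted circRNA is counted. They also depend on single libraries, with 1 call left without the first exosomal library and 2 without the second.

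The direction of CORO1C depended on the scale. Its share of circRNA reads was 0.384% ± 0.0163 in exosomes and, for the gene's 2 entries together, 0.142% ± 0.0489 in cells, a ratio of 2.70, without overlap (exact permutation p = 0.33). With total circRNA reads as the scale the log2 fold change was 1.5 (edgeR adjusted p = 0.0165). With TMM factors, which were 1.93 and 2.25 in the exosomal libraries and at most 0.925 elsewhere, it was -0.29 ± 0.40 (adjusted p = 0.555). Per library read it was lower in exosomes, at 1.11 ± 0.371 against 7.63 ± 2.42 RPTM, and on those totals the log2 fold change was -2.78 (adjusted p = 1.69e-07). CEP72, with 1 read in each exosomal library, had -1.28 ± 0.89 (edgeR adjusted p = 0.223).

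Several hosts used 1 end again and again. Of the 178, 101 shared a start or an end with another circRNA, 56.7% against 59.6% among all circRNAs. In CEP192 8 of 11 began at the same base, chr18 position 12999421, 8059 bases into the gene, and ran from 2162 to 118223 bases. These 8 held 98.0% ± 0.438 of the CEP192 reads in cytoplasm and all of them in nucleus and ribosome fraction, but 55% ± 7.07 of the few in cytosol. All 4 CEP43 circRNAs began at position 167022409, 23012 bases into the gene. In DNAH14 4 of 10 began at position 224952670 and held 85.5% ± 8.74 of its cytoplasmic reads. In KIF5B 3 of 6 had their upstream end at position 32037607, and no table listed all 3 except that of whole cells.

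CircRNAs from the shared CEP192 start were listed in different tables. The CEP192 circRNAs of 19786, 31188 and 42914 bases all had at least 15.5 reads in each cytoplasmic library. The first was listed in 5 tables, the second in cells, nucleus and cytoplasm, and the third in cells, cytoplasm and ribosome fraction. The nuclear entries had 3 or 3.5 reads per library, so an absence from that table is near the limit of its depth. Of the 21 starts and 26 ends shared by circRNAs of the set, 26 were upstream and 16 downstream on the host's strand, and the strand of the remaining hosts was not assigned.

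**Figure D4:**
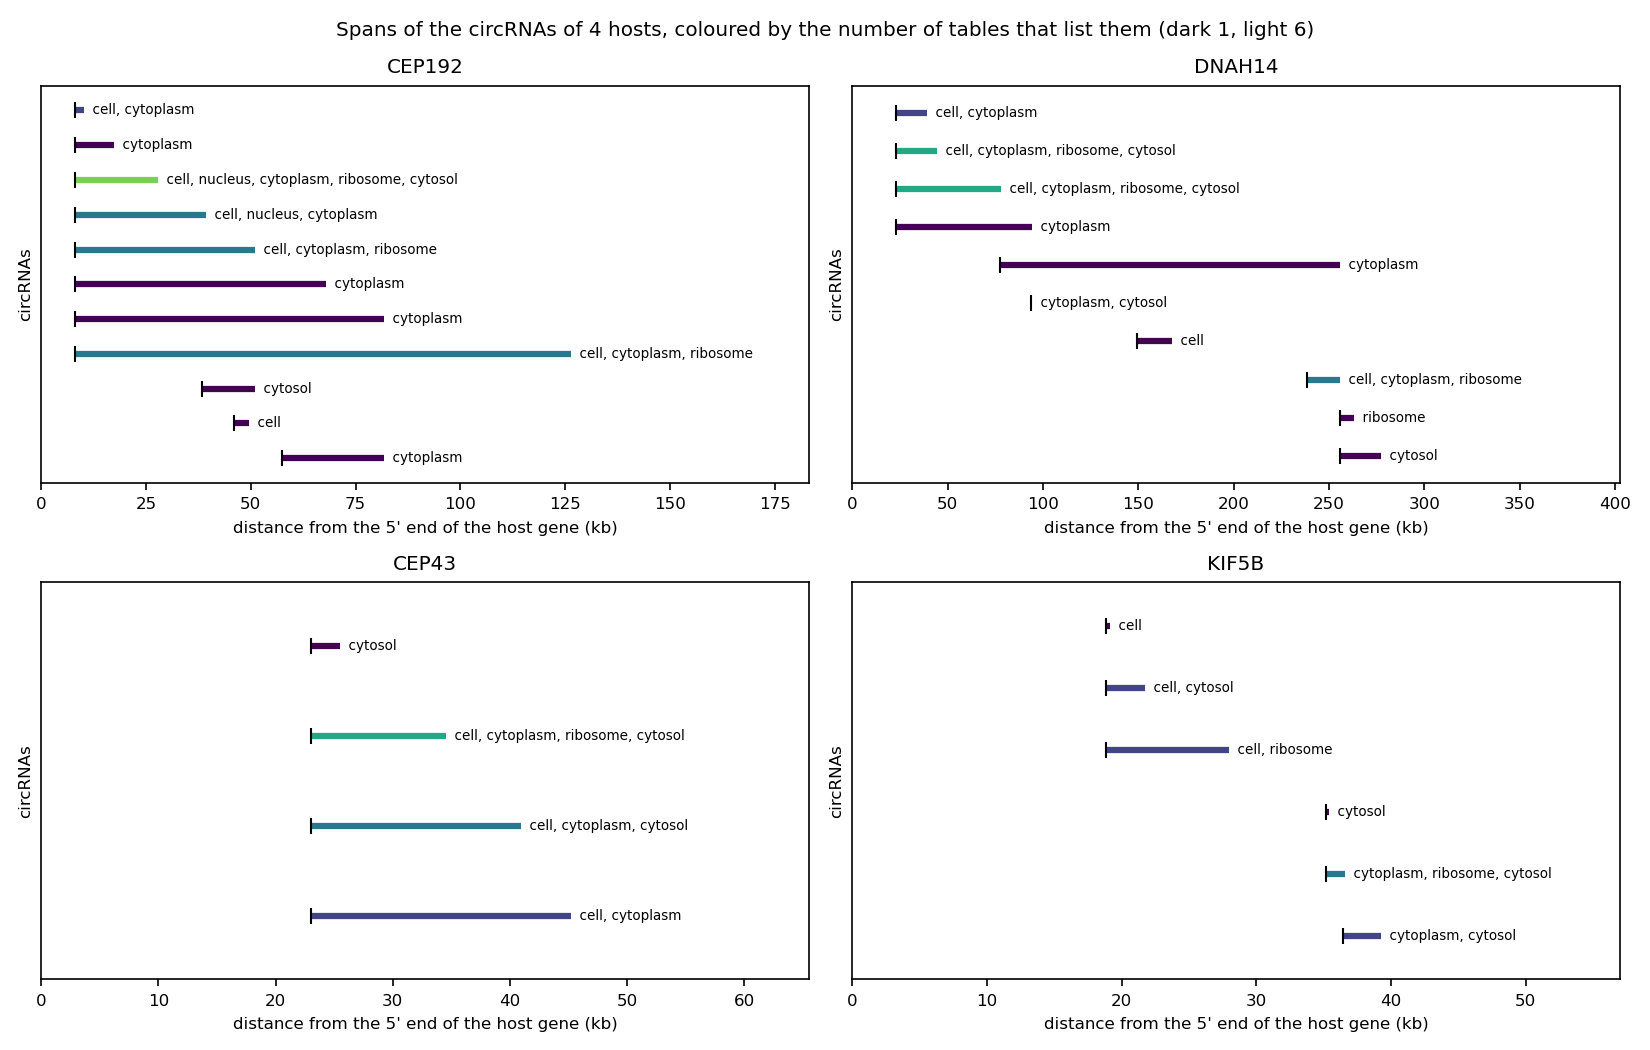
Spans of the circRNAs of CEP192, DNAH14, CEP43 and KIF5B along their genes, as distance in kb from the 5′ end of the gene, with the tables that list each. Stacked bars with the same left edge are circRNAs that share their upstream end, such as 8 of 11 in CEP192.

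Spans ran from 200 to 178013 bases with a median of 4780, against 6525 for all circRNAs, and 25 were at most 1000 bases, 14% against 15.0%. Above 50000 bases there were 7 of the 178 and 733 of the 11227. The upstream end of a circRNA lay at a median of 43.2% of its gene, for the 156 with a strand, against 44.1% over all circRNAs with 1 host and a strand. Pairs in MYO19 and TUBGCP4 differed by 1 and 3 bases at 1 end and count here as separate circRNAs. One circRNA, in CEP76, lay inside a second protein-coding gene as well. Exonic and intronic classes were not analysed here.

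Among 90 other genes of the same pathways, such as dynactin subunits, kinesin light chains, adaptors and microtubule anchors, 47 had 153 circRNAs, of which 6 were tested. A CAMSAP1 circRNA of the gene that caps microtubule minus ends, chr9:135881633-135883078, was higher in the nucleus than in cytoplasm, by 3.38 ± 0.27 on the log2 scale (edgeR adjusted p = 8.53e-12), and higher in the ribosome fraction than in cytosol, by 3.05 ± 0.32 (adjusted p = 8.80e-09). A CLASP1 circRNA, from a gene that steadies growing microtubule ends, was lower in the ribosome fraction, at -1.38 ± 0.43 on the log2 scale (edgeR adjusted p = 0.00760). In nucleus against cytoplasm 1 of the 6 was higher and 2 lower, beside a background of 48.2% called, and under the stricter rule 1 and 0. In ribosome against cytosol 1 was higher and 3 lower, beside 52.7%, and under the stricter rule 1 and 1. In exosome against cell 0 were higher and 2 lower, beside 46%, and none passed the stricter rule.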

How the data were processed

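Counts of back-splice reads, as the authors deposited them, are whole numbers per circRNA and library, given separately by a caller headed Ciri and one headed CIRC. RPTM, the authors' value per 10000000 library reads, is a linear function of a caller's counts and implies library totals of 65.6 to 104 M, whose meaning is not stated. The build is hg38, as the submitters' processing notes have it; aligner and caller versions are not given in the sources used here. The tables carry no strand, and a host may lie antisense to the circRNA.

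Tables were joined on chromosome, start and end, and hosts assigned from the RefSeq table of assembly GRCh38.p14. Reads were the mean over callers with an entry, rounded for testing. Tests used edgeR 4.0.16 in R 4.3.3 (TMM factors, filterByExpr with a minimum count of 10) in 1 fit over 12 libraries, on the 4679 circRNAs with an entry from both callers in some table, of which 950 passed. SE is the absolute log2 fold change over the square root of F. DESeq2 1.42.0, other scales, filters, callers and left-out libraries were alternatives, and the script was tested on simulated data. Named circRNAs were the 6 most abundant per fraction, those called, the leading one per role, and hosts with 5 or more; others named were chosen after their values were seen. The members and lists were chosen with earlier results of these data known.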

Additional observations from a re-analysis of the deposited data

How the results depend on the processing

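The counts of calls moved with the treatment of unlisted circRNAs and of low counts, and with how many of the 178 were tested. That number was 13 unless given. Parentheses in this paragraph hold the higher and lower calls among all circRNAs tested in a setting, and how many those were. The counts also changed when single libraries were left out. Nucleus against cytoplasm gave 7 calls (142 and 316 of 950). DESeq2 gave 3 (64 and 42 of 950), as did the stricter rule (106 and 8 of 950). Unlisted circRNAs at 1 read gave 3 too (120 and 18 of 838). Among circRNAs that both tables list, 3 of 8 were called (80 and 46 of 490). The filter of 5 reads gave 11 of 37 (99 and 706 of 2630). With unlisted at 1 read as well, it gave 3 of 37 (65 and 93 of 2630). The 4 libraries of this comparison alone gave 2 of 9 (89 and 136 of 513). Ribosome against cytosol gave 8, but 5 with DESeq2, 3 among circRNAs listed in both tables, 21 with the filter of 5 reads, 13 with that filter and unlisted at 1 read, 29 with no filter, and 6 to 10 without single libraries. Exosome against cell gave 10 (38 and 399 of 950), but 5 with RLE factors (46 and 188 of 950). Its 4 libraries alone gave 2 of 3 (12 and 76 of 318). DESeq2 gave 1 (5 and 58 of 950), as did total circRNA reads (149 and 11 of 950). The stricter rule gave 0 (15 and 0 of 950), as did unlisted at 1 read (18 and 5 of 838). The filter of 5 reads with unlisted at 1 read gave 0 of 37 (1 and 13 of 2630). Among circRNAs that both tables list, 0 of 2 were called (14 and 13 of 295).

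Signs of single circRNAs turned as follows. In nucleus against cytoplasm implied totals gave -2.32 for CORO1C, -1.46 for DYNC1H1, -1.82 for MYO9B, -0.044 for KIF2C, -0.83 for CEP72 and -0.47 for PCM1. The small CORO1C value also turned with all entries (-0.80), CIRC alone (-0.18), Ciri alone (-0.33), 5 reads (-0.26), 5 reads and unlisted at 1 read (-0.42), no filter (-0.38), both tables (-0.056), 4 libraries (-0.20) and every left-out library (-0.41 to -0.23). MYO9B turned with all entries (-0.32) and ran from -0.96 to 0.77 without single libraries. The 31188-base CEP192 circRNA turned with RLE factors (0.39), total circRNA reads (0.50) and unlisted at 1 read (0.32). In ribosome against cytosol MYO9B turned with 5 reads (-0.27), implied totals (-0.57), both tables (-0.26) and without single libraries (-0.29 to 0.16), and PCNT with RLE factors (-0.016), 5 reads (-0.32), implied totals (-0.63) and without single libraries (-1.62 to 0.61). In exosome against cell CORO1C turned with total circRNA reads (1.5), DESeq2 (0.17), RLE factors (0.17) and unlisted at 1 read (0.38), CEP72 with total circRNA reads (0.49) and PCM1 with unlisted at 1 read (0.65). Of these turned values, edgeR called CORO1C with all entries and on implied totals, DYNC1H1 and MYO9B on implied totals, and CORO1C in exosomes with total circRNA reads. The causes were not tested.

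The share of circRNA reads was 1.37% in cells, 1.59% in the nucleus, 1.51% in cytoplasm, 0.977% in the ribosome fraction, 1.04% in cytosol and 0.789% in exosomes by the caller CIRC alone. Over circRNAs of both callers it was 1.35%, 1.38%, 1.38%, 1.13%, 0.983% and 0.689%. By Ciri alone it moved to 0.977% in cytoplasm, 0.909% in the ribosome fraction, 0.780% in cytosol and 0.465% in exosomes. With replicate number as a block the counts were 7, 8 and 10, as without it. Deviations of same-numbered samples had little correlation (r = 0.0589, 0.087 and 0.0199 over 179, 403 and 51 circRNAs). With 2 libraries per fraction and low counts, this cannot decide if the numbers mark a shared culture.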
